A study of Mus musculus with 36 samples.

Results

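The genes described here encode the mitochondrial pyruvate dehydrogenase complex and the enzymes that switch it on and off. They are Pdha1, Pdhb, Dlat and Pdhx for the complex, Pdk1, Pdk2, Pdk3 and Pdk4 for its kinases, and Pdp1 and Pdp2 for its phosphatases. These 10 genes were chosen by their names from the 54532 genes of the count table, and all 10 passed the filter of at least 100 counts over all libraries, as did 17994 genes in total. The set was put together with results on genotype and sampling time in these same libraries already known. The adjusted p-values of its members therefore show where each gene fell among all genes tested, and they are not independent evidence.

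Messenger RNA from the livers of 36 male mice aged 2 to 3 months was sequenced, 1 library per mouse. THRB WT mice were heterozygous controls (THRB+/-) and THRB KO mice were homozygous knockouts (THRB-/-) of the thyroid hormone receptor beta gene Thrb, altered in the whole body so that binding of the receptor to DNA is impaired, and both groups therefore carried the altered allele. It is the allele Thrbtm1Df, held on the C57Bl/6NCrl background. The study lists raised serum levels of the thyroid hormone T3 among the known effects of this knockout outside the liver. Receptor loss and hormone level therefore cannot be told apart here. All mice lived in groups in 12 h light and 12 h darkness with chow and water freely available, and 3 mice of each genotype were sampled every 4 h from ZT2 to ZT22, where ZT is zeitgeber time in hours and ZT0 is lights on. Replicates are separate mice, labelled a, b and c within each group, and what a letter shares beyond a name was not given in the sources used here. The labels also carry a number for each library, whose meaning is not stated. These numbers were mostly close between the genotypes for mice of the same letter and time.

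Pyruvate dehydrogenase turns pyruvate from glycolysis, lactate or alanine into acetyl-CoA, which feeds the citric acid cycle and, in the liver, the synthesis of fatty acids. Phosphorylation of the E1 alpha subunit by the kinases stops the complex and so spares pyruvate for glucose production in fasting, and the phosphatases reverse it. The kinase gene Pdk4 is widely known as a gene induced by fasting, fatty acids and glucocorticoids, and thyroid hormone has been reported to act on kinases of this family.

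Total counts ranged from 29063273 to 39913574 per library in THRB WT livers and from 31008555 to 42530551 in THRB KO livers. Thrb itself was counted in every library, between 24.3 and 38.5 CPM (counts scaled to a common library total) in THRB WT livers and between 26.2 and 37.7 CPM in THRB KO livers. The counts of Thrb therefore gave no check of the genotype labels. The summed level of 6 hepatocyte markers (such as Alb and Ttr) lay between 64293 and 89868 CPM in THRB WT livers and between 72011 and 95671 CPM in THRB KO livers, and each of the 6 passed the filter. No marker of hepatocytes, Kupffer cells, endothelial cells, stellate cells, cholangiocytes or lymphocytes passed the test between genotypes, with summed Kupffer cell markers at 125 to 383 CPM and 132 to 257 CPM in the order THRB WT and THRB KO. In whole liver, a lower number of cells of a type and less RNA per cell cannot be told apart.

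Per length, the E1 subunits Pdhb and Pdha1, the subunit Dld from outside the set and 1 kinase had the highest levels. Pdhb, the beta subunit of E1, had the highest level at 37.5 ± 5.43 FPKM (SD, n = 36; here CPM divided by the gene's length in kilobases). Pdk2, a kinase of broad tissue range, followed at 35.3 ± 5.82 FPKM, and Pdha1, the E1 alpha subunit that carries the phosphorylation sites, at 21.5 ± 3.06 FPKM. Pdhb and Pdk2 were close to each other, since Pdhb was the higher in 26 of 36 livers, whereas Dld, the E3 subunit shared with other complexes, exceeded Pdha1 in 36 of 36.

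Dlat, the E2 acetyltransferase that forms the core, and the kinase Pdk1 could hardly be ordered, at 11.8 ± 1.89 and 11.7 ± 2.37 FPKM, with Dlat higher in 20 of 36 livers. Pdhx, which anchors E3 to the core, reached 7.86 ± 0.847 FPKM and the phosphatase Pdp2 6.59 ± 1.23 FPKM. Pdk4 lay lower at 2.88 ± 2.41 FPKM with an SD almost as large as its mean. The phosphatase Pdp1 and the kinase Pdk3 were barely present, at 0.203 ± 0.0754 and 0.126 ± 0.0645 FPKM. These rested on 3 to 96 counts per library for Pdp1 and 2 to 23 counts for Pdk3, so differences in either were hard to detect at this depth. Neighbours in the order of levels whose log2 ratio had an SD over the 36 livers larger than its mean were Pdhb and Pdk2, Pdk2 and Dld, Dlat and Pdk1, Pdhx and Pdp2, and Pdp1 and Pdk3.

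**Figure D1:**
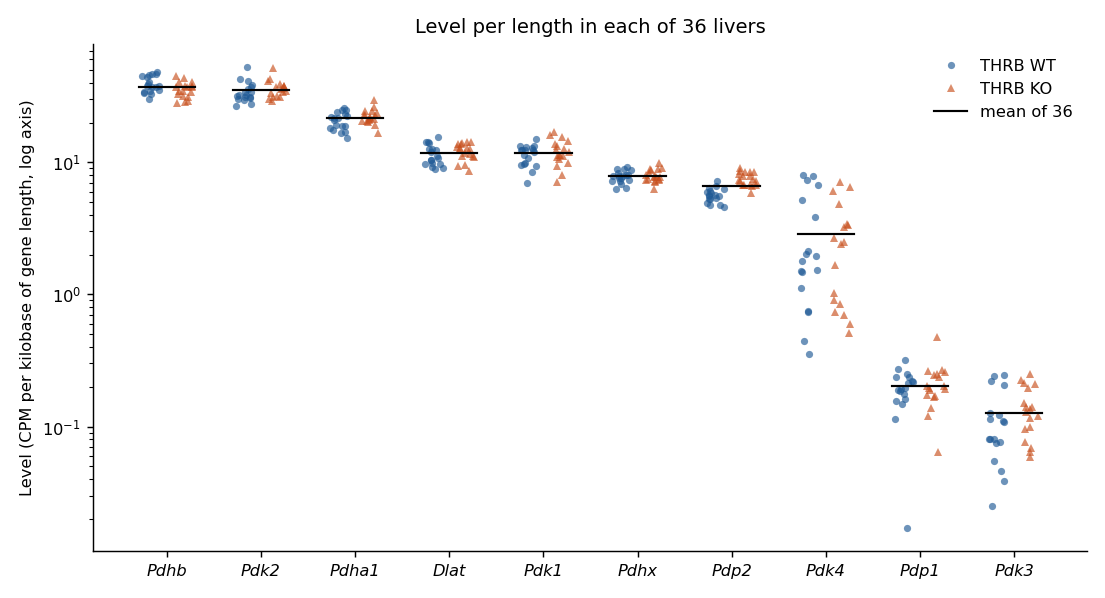
Level of each gene (FPKM, log axis) in each of 36 livers, with circles for THRB WT mice, triangles for THRB KO mice and a bar for the mean of 36. The 8 genes from Pdhb to Pdk4 had means of 2.88 to 37.5 FPKM, and Pdp1 and Pdk3 had means of 0.203 and 0.126 FPKM.

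Among the kinases, Pdk2 made up 70.3 ± 5.86% (SD, n = 18) of the summed kinase FPKM in THRB WT livers and 71.0 ± 5.77% in THRB KO livers. Pdk1 contributed 23.3 ± 2.79% and 23.4 ± 3.04% in the same order. These shares rest on the gene lengths of the count table, 7779 bases for Pdk1 and 3163 bases for Pdk2. In CPM the 2 kinases were closer, with means of 91.2 for Pdk1 and 112 for Pdk2. The share of Pdk4 moved with time of day, from 0.906 ± 0.361% (SD, n = 3) at ZT10 to 12.3 ± 5.60% at ZT2 in THRB WT livers. Pdk3 stayed under 0.6% in every THRB WT liver, its highest share being 0.562%. Pdp2 accounted for nearly all phosphatase transcript, since Pdp1 had a mean of 0.916 CPM against 37.5 CPM for Pdp2.

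The stretch of 200 bases from 250 to 51 bases before the start is shown for Pdp2, Pdk4 and Pdk2. The comparisons turn on Pdp2 for genotype and Pdk4 for time of day, and Pdk2 had the highest level of the kinases. Sequences are from RefSeq for GRCm38.p6, 5′ to 3′ on the strand of the gene, in lower case, with capitals for an E-box (CACGTG), the element that clock proteins of the basic helix-loop-helix class can bind.
Pdp2 chr8:104591222-104591421 (+ strand): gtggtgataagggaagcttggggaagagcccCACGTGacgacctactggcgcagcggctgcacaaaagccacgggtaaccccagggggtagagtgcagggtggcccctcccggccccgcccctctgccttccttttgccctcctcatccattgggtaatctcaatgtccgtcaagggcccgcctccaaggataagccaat
Pdk2 chr11:95041422-95041621 (- strand): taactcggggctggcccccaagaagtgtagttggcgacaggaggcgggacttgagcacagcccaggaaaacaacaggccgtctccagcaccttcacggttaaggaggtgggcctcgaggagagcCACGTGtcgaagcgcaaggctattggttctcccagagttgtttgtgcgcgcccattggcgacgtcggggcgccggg
Pdk4 chr6:5496329-5496528 (- strand): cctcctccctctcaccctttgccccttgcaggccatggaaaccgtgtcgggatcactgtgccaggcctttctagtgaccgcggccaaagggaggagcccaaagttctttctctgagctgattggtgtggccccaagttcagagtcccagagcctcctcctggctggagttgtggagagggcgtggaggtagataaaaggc
RefSeq promoters were found for 9 of the 10 genes, 11 promoters in all, and not for Pdp1. The E-box occurred in 1 promoter of Pdp2, with its first base 219 bases before the start, and in 1 of 2 promoters of Pdk2, at 126 bases, and in no other member. Pdp2 lies on chromosome 8 from 104591451 to 104599026 on the plus strand, Pdk2 on chromosome 11 from 95026258 to 95041354 and Pdk4 on chromosome 6 from 5483351 to 5496309, both on the minus strand (GRCm38). In the same stretch, 4.34% of 32851 promoters held an E-box. Their median GC content was 51.5%, against 62% and 62.5% in the promoters of Pdp2 and Pdk2 with the E-box. The share among promoters of like GC content was not taken. Neither the nuclear receptor half-site AGGTCA (11.4% of promoters), nor its direct repeats spaced by 1 base (0.0244%) or 4 bases (0.0122%), nor the D-box TTATGTAA (0.658%), nor the FOXO element GTAAACA (2.58%) occurred on either strand in any of the 11. A match is a run of letters and does not show binding, and its absence covers this stretch alone.

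The comparison of genotypes asked which of the genes differed between THRB KO and THRB WT livers once sampling time was taken into account. Pdp2, a phosphatase gene known from liver and adipose tissue, was higher in THRB KO livers by 0.42 on the log2 scale (standard error 0.046), a fold of 1.33 with a 95% interval of 1.25 to 1.42. Its adjusted p was 4.8e-07 by the quasi-likelihood F test of edgeR, with the method of Benjamini and Hochberg over all genes tested. Pdp2 was the only member of 10 to pass the threshold of 0.05, where 0.950% of all genes tested did so (171 of 17994, 91 higher and 80 lower).

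Pdp2 had 32.1 ± 3.96 CPM (SD, n = 18) in THRB WT livers, with a lowest value of 26.1, a median of 31.8 and a highest value of 40.9. In THRB KO livers it had 42.9 ± 4.91 CPM, with a lowest value of 33.5, a median of 42.2 and a highest value of 51.4. The ranges over all times thus overlapped, while the mean was higher in THRB KO livers at 6 of 6 sampling times.

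At ZT2 the 3 THRB WT mice had 33.8, 34.7 and 31.8 CPM of Pdp2 and the 3 THRB KO mice 41.0, 42.6 and 33.5 CPM. At ZT6 the values were 40.9, 31.7 and 35.8 CPM against 48.2, 38.5 and 46.8 CPM. At each of these times in the light phase 1 THRB KO mouse fell within the THRB WT range. At ZT10 the THRB WT mice had 36.4, 37.4 and 30.2 CPM and the THRB KO mice 51.4, 47.8 and 48.6 CPM. At ZT14 they had 27.1, 33.1 and 31.9 CPM against 48.0, 44.9 and 38.4 CPM. The genotypes did not overlap at either of these times. At ZT18 the THRB WT mice had 27.9, 27.0 and 29.8 CPM and the THRB KO mice 38.1, 41.2 and 38.0 CPM. At ZT22 they had 30.4, 32.3 and 26.1 CPM against 38.2, 44.6 and 41.8 CPM. All THRB KO mice exceeded all THRB WT mice at these 2 times as well.

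Pdp2 was therefore without overlap at 4 of 6 sampling times, a pattern in 1 direction that 62 of 17994 genes (0.345%) showed. Its log2 fold change at single times was 0.22 at ZT2 and 0.30 at ZT6, and then 0.51, 0.51, 0.47 and 0.49 from ZT10 to ZT22, each with a standard error of about 0.11. These differences between times did not pass the interaction test of genotype and sampling time (edgeR, unadjusted p = 0.332).

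The other phosphatase, Pdp1, had 0.877 ± 0.295 CPM in THRB WT livers and 0.954 ± 0.384 CPM in THRB KO livers (SD, n = 18). Its log2 difference was 0.12, with a 95% interval of -0.25 to 0.49.

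No kinase gene passed the test. Pdk2 had 109 ± 19.9 and 115 ± 16.9 CPM (SD, n = 18, THRB WT first), a log2 difference of 0.08 with a 95% interval of -0.02 to 0.18. Pdk1 had 88.7 ± 15.9 and 93.6 ± 20.8 CPM, a log2 difference of 0.07 with an interval of -0.11 to 0.26. For these abundant kinases the 95% intervals thus reached no further than 0.26. Pdk4 differed by -0.07 with a wide interval of -0.50 to 0.35, and Pdk3 by 0.32 with an interval of -0.16 to 0.80.

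Within single livers, the ratio of Pdp2 to Pdk2 on the log2 scale of FPKM was -2.60 ± 0.237 (SD, n = 18) in THRB WT livers and -2.26 ± 0.181 in THRB KO livers. The THRB WT ratios ran from -3.04 to -2.15 and the THRB KO ratios from -2.66 to -2.01, so that the ranges overlapped.  These ratios contain the Pdp2 values already given and are no separate evidence.

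**Figure D2:**
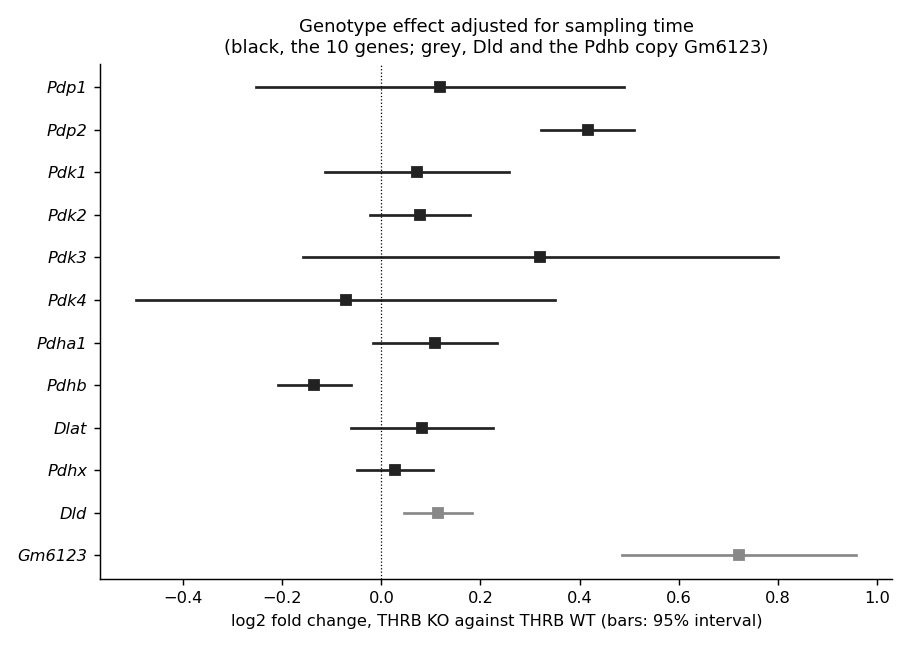
Log2 fold change of THRB KO against THRB WT livers adjusted for sampling time, with squares for estimates and bars for 95% intervals, in black for the 10 genes and in grey for Dld and for Gm6123, a near-identical copy of Pdhb. The interval of Pdp2 (0.32 to 0.51) lay above 0 and that of Pdhb (-0.21 to -0.06) below it, and the intervals of the other 8 black genes included 0.

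Of the complex, Pdhb was lower in mean at 6 of 6 times but did not pass the edgeR test. It had 151 ± 21.1 CPM in THRB WT livers (lowest 117, median 145, highest 185) and 138 ± 19.1 CPM in THRB KO livers (lowest 108, median 139, highest 174; SD, n = 18). The log2 difference was -0.14 (standard error 0.036), with an adjusted p of 0.0572 in edgeR. DESeq2's likelihood ratio test, which the study used for genotype with time taken into account, gave an adjusted p of 0.0236, under the threshold. When the mice of 1 letter were left out in turn, the edgeR value was 0.662 for letter a, 0.298 for letter b and 0.0407 for letter c. No overlap at 1 or more of the 6 times, in either direction, was found for 46.0% of all genes tested and for 5 of the 10 members (Pdp2, Pdhb at ZT6, Pdhx at ZT2, and Pdp1 and Pdk3 at ZT22). For Pdhb at ZT6, THRB WT mice had 145.0, 169 and 157 CPM and THRB KO mice 134, 123 and 144.5 CPM, a gap far smaller than the spread within either genotype.

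Pdhb lies on chromosome 14 from 8165996 to 8173025 (GRCm38), 9.49 Mb from Thrb on the same chromosome. Loss of the receptor and any sequence inherited along with the altered Thrb allele cannot be told apart for a gene at this distance.

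Gm6123, a processed pseudogene on chromosome 1 from 4771131 to 4772199, was 97.0% identical to the Pdhb transcript over 1079 aligned bases, the only pseudogene transcript found at 95% identity or more over at least 80% of its length for any of the 10 genes. It was higher in THRB KO livers, at 1.83 ± 0.473 CPM against 1.11 ± 0.304 CPM in THRB WT livers (SD, n = 18), by 0.72 on the log2 scale (standard error 0.116), with an adjusted p of 3.0e-04 in edgeR. Its direction was thus opposite to that of Pdhb, and the genotypes did not overlap at ZT2, ZT6, ZT18 and ZT22. Gm6123 held 1.02% as many counts as Pdhb over all libraries, and reads of the pair may have been assigned to either. With its counts added to those of Pdhb the log2 difference of Pdhb was -0.13 (adjusted p = 0.0815 from edgeR). Whether reads moved between the genes was not tested.

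**Figure D3:**
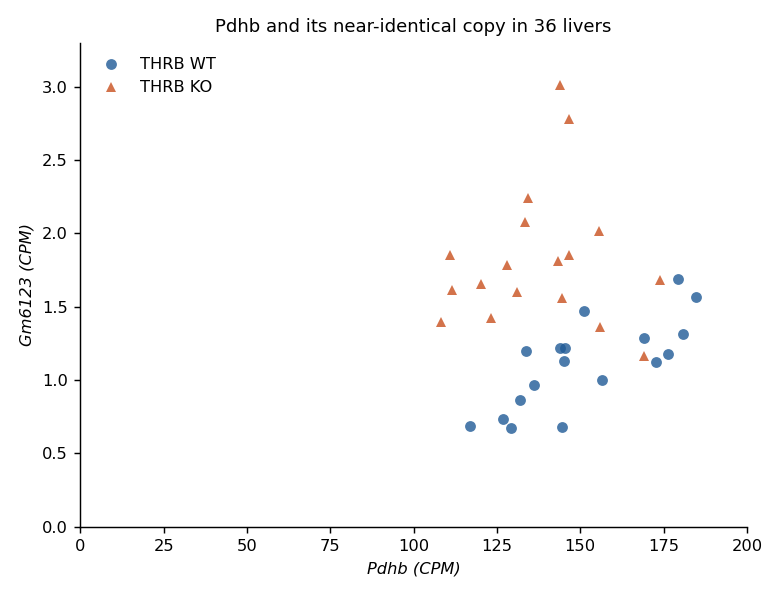
Level of Gm6123 against that of Pdhb (both in CPM) in each of 36 livers, with circles for THRB WT and triangles for THRB KO mice. THRB KO mice lay higher on the axis of Gm6123, at 1.16 to 3.01 CPM against 0.675 to 1.69 CPM in THRB WT mice, while the ranges of Pdhb overlapped widely.

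The remaining subunits differed less than the test could call. Pdha1 had 77.3 ± 11.8 CPM in THRB WT livers and 83.2 ± 10.5 CPM in THRB KO livers (SD, n = 18), a log2 difference of 0.11 with a 95% interval of -0.02 to 0.23. Dlat differed by 0.08 with an interval of -0.06 to 0.23, and Pdhx by 0.03 with an interval of -0.05 to 0.10. Dld, the subunit outside the set, had 118 ± 8.27 and 128 ± 7.49 CPM, a log2 difference of 0.11 (standard error 0.034), with an adjusted p of 0.0994 in edgeR. For Pdha1, 1143 bases overlap Map3k15 on the opposite strand and the libraries did not keep strand, but Map3k15 had 0.746 CPM in THRB WT livers and 0.636 CPM in THRB KO livers, little beside Pdha1. The antisense gene Gm11513 within Pdk2 held 30 counts over all libraries.

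**Figure D4:**
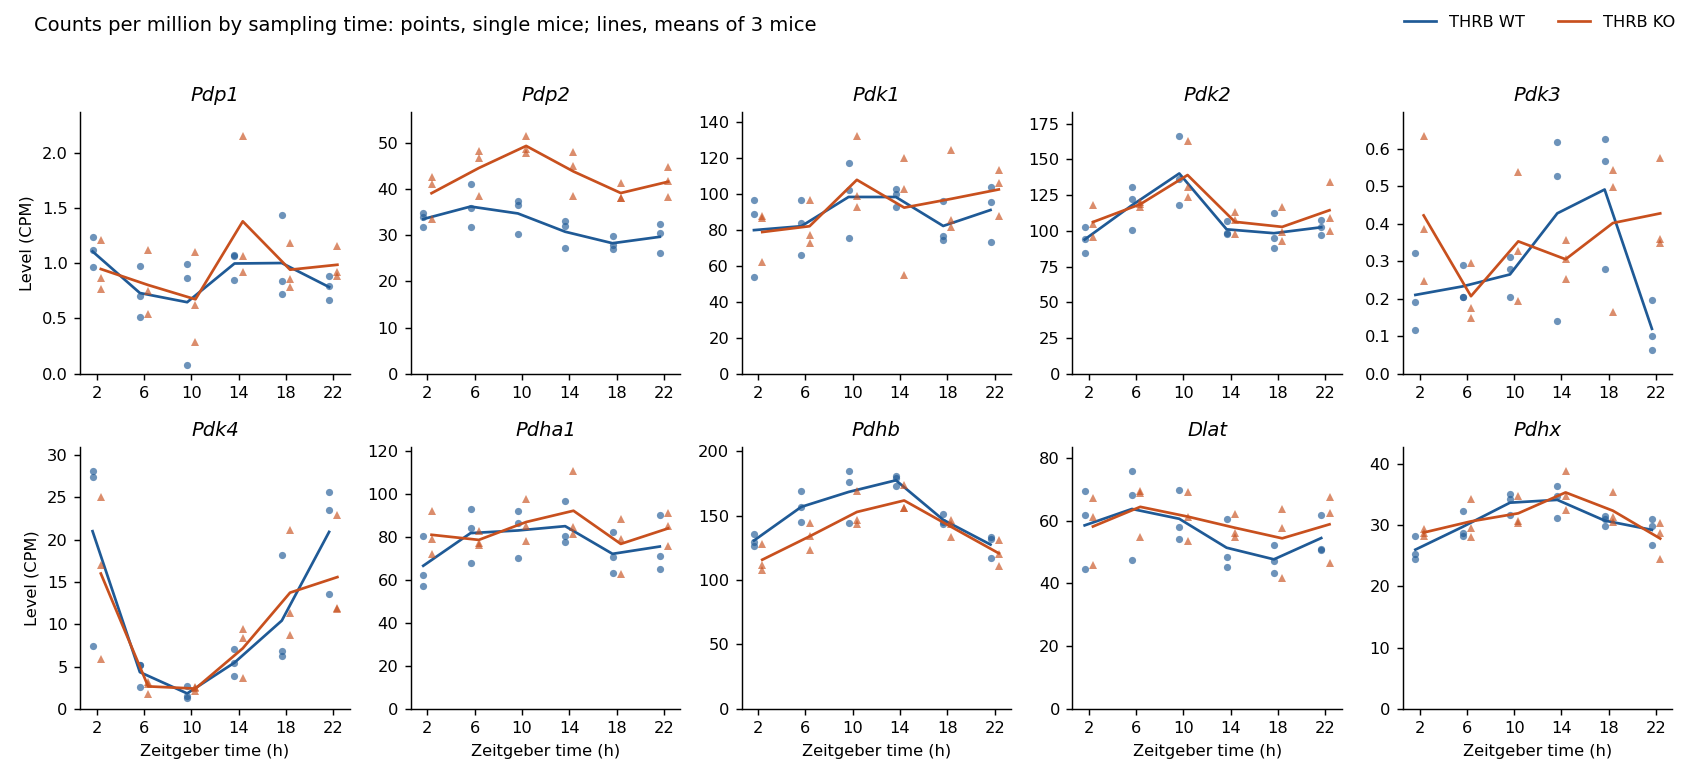
Level (CPM) of each gene by zeitgeber time, with points for single mice (circles THRB WT, triangles THRB KO) and lines for means of 3 mice. Pdp2 ran higher in THRB KO livers at every time, from 39.0 to 49.3 CPM in mean against 28.2 to 36.2 CPM, and Pdk4 fell to means of 1.82 CPM in THRB WT and 2.39 CPM in THRB KO livers at ZT10.

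Rhythms of 24 h were tested within each genotype, to ask which genes followed the time of day. Within each letter, the library numbers in the labels at ZT2 to ZT10 did not overlap those at ZT14 to ZT22. Light and dark times therefore cannot be told apart from whatever these numbers follow. In THRB WT livers 5 of the 10 genes passed (Pdk4, Pdhb, Pdhx, Pdp2 and Pdk2), where 33.0% of all genes tested did so. In THRB KO livers 3 of 10 passed (Pdhb, Pdk4 and Pdhx), where the share of all genes was 28.9%. A rhythm called in 1 genotype alone is no difference between genotypes, and the test of that difference called none of the 10 genes and 0% of all genes (edgeR, 553 genes at an unadjusted p under 0.05, of which 0 were members, and 0 adjusted calls also with DESeq2). The interaction of genotype with sampling time as a factor also called none and 0% of all genes (edgeR, 484 genes under 0.05 before adjustment, and 0 adjusted calls with DESeq2). Of the 10 genes only Pdk3 lay under 0.05 before adjustment, at an edgeR value of 0.0406.

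Pdk4 had by far the largest rhythm of the set. Its amplitude on the log2 CPM scale was 1.66 ± 0.243 (SE, n = 18) in THRB WT livers, with a peak at ZT22.4 ± 0.560 h, and 1.47 ± 0.235 in THRB KO livers, with a peak at ZT21.1 ± 0.612 h (adjusted p = 3.7e-05 and 4.4e-04, edgeR). In the count model its amplitude exceeded that of 99.6% of tested genes in THRB WT livers and 99.4% in THRB KO livers. The mean at ZT2 was 11.6 times that at ZT10 in THRB WT livers and 6.70 times in THRB KO livers.

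At ZT2 the 3 THRB WT mice had 7.44, 27.4 and 28.1 CPM of Pdk4 and the 3 THRB KO mice 5.85, 25.1 and 17.1 CPM. At ZT6 they had 2.60, 5.24 and 5.16 CPM against 1.79, 2.98 and 3.17 CPM. At ZT10 they had 1.57, 2.64 and 1.24 CPM against 2.10, 2.46 and 2.60 CPM. Mice of 1 group thus differed most at ZT2, where the mouse of letter a was the lowest in both genotypes, and the trough was shared. At ZT14 the values were 5.39, 7.07 and 3.92 CPM in THRB WT mice and 9.41, 8.42 and 3.60 CPM in THRB KO mice. At ZT18 they were 6.80, 6.29 and 18.2 CPM against 8.77, 11.3 and 21.1 CPM. At ZT22 they were 23.5, 13.5 and 25.7 CPM against 11.8, 12.0 and 22.9 CPM. The genotypes overlapped at all 6 times, and the mouse of letter c was the highest in both genotypes at ZT18 and ZT22.

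With the 6 letter c mice left out of the THRB KO fit, the adjusted p of Pdk4 was 0.0518 (edgeR) at an amplitude of 1.27 in the count model, against 1.51 with all mice, and genes called rhythmic over the whole table fell from 5201 to 2343. The peak in THRB KO livers was 1.35 h earlier with a standard error of 0.830 h, and the difference of the rhythms had an unadjusted p of 0.234 (edgeR).

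Pdhb and Pdhx had their peaks near the start of the dark phase. Pdhb had an amplitude of 0.24 ± 0.034 with a peak at ZT11.6 ± 0.528 h in THRB WT livers and 0.24 ± 0.034 with a peak at ZT12.8 ± 0.528 h in THRB KO livers (SE, n = 18; adjusted p = 1.8e-04 and 3.3e-04 from edgeR). Pdhx had an amplitude of 0.18 ± 0.032 with a peak at ZT13.0 ± 0.681 h, and of 0.15 ± 0.040 with a peak at ZT13.1 ± 1.03 h (adjusted p = 0.0034 and 0.034). These swings were small beside that of Pdk4, with a highest mean for Pdhb at ZT14 in both genotypes that was 1.39 times the lowest in THRB WT livers and 1.40 times in THRB KO livers. The call of Pdhx in THRB KO livers was lost without the mice of any 1 letter (adjusted p from 0.0843 to 0.346, edgeR).

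Pdp2 and Pdk2 peaked in the light phase. Pdp2 had an amplitude of 0.18 ± 0.042 with a peak at ZT6.6 ± 0.907 h in THRB WT livers (adjusted p = 0.011 from edgeR) and of 0.14 ± 0.047 with a peak at ZT9.9 ± 1.27 h in THRB KO livers (adjusted p = 0.075). The difference of the 2 peaks was 3.26 h with a standard error of 1.56 h, and the test of the rhythm difference gave an unadjusted p of 0.121 (edgeR). Pdk2 had an amplitude of 0.21 ± 0.066 with a peak at ZT9.2 ± 1.19 h in THRB WT livers (adjusted p = 0.029) and of 0.14 ± 0.061 at ZT8.3 ± 1.62 h in THRB KO livers (adjusted p = 0.17). Leaving out 6 of the 18 THRB WT mice by letter ended both calls. Pdp2 had an adjusted p of 0.205 (edgeR) without letter a, at an amplitude of 0.13 in the count model against 0.18 with all mice. Pdk2 had 0.101 and 0.183 without letters a and b, at amplitudes of 0.17 and 0.20 against 0.21. Calls over all genes fell from 5936 to 4005 and 3939 in the same fits.

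Dlat, Pdha1, Pdk1, Pdk3 and Pdp1 passed in neither genotype. With the letter added to the model as a replicate block, Dlat and Pdha1 passed in THRB WT livers. Dlat had its highest mean at ZT6 in both genotypes and an adjusted p of 0.081 in THRB WT livers (edgeR), which became 0.0139 without letter a, and Pdha1 its highest mean at ZT14 in both. Pdk3 had a THRB WT mean of 0.492 CPM at ZT18 and 0.120 CPM at ZT22, values that correspond to few counts. At ZT22 the THRB KO mice had 0.350 to 0.576 CPM of Pdk3 and the THRB WT mice 0.0639 to 0.196 CPM, without overlap, as 46.0% of all genes showed at 1 or more times.

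**Figure D5:**
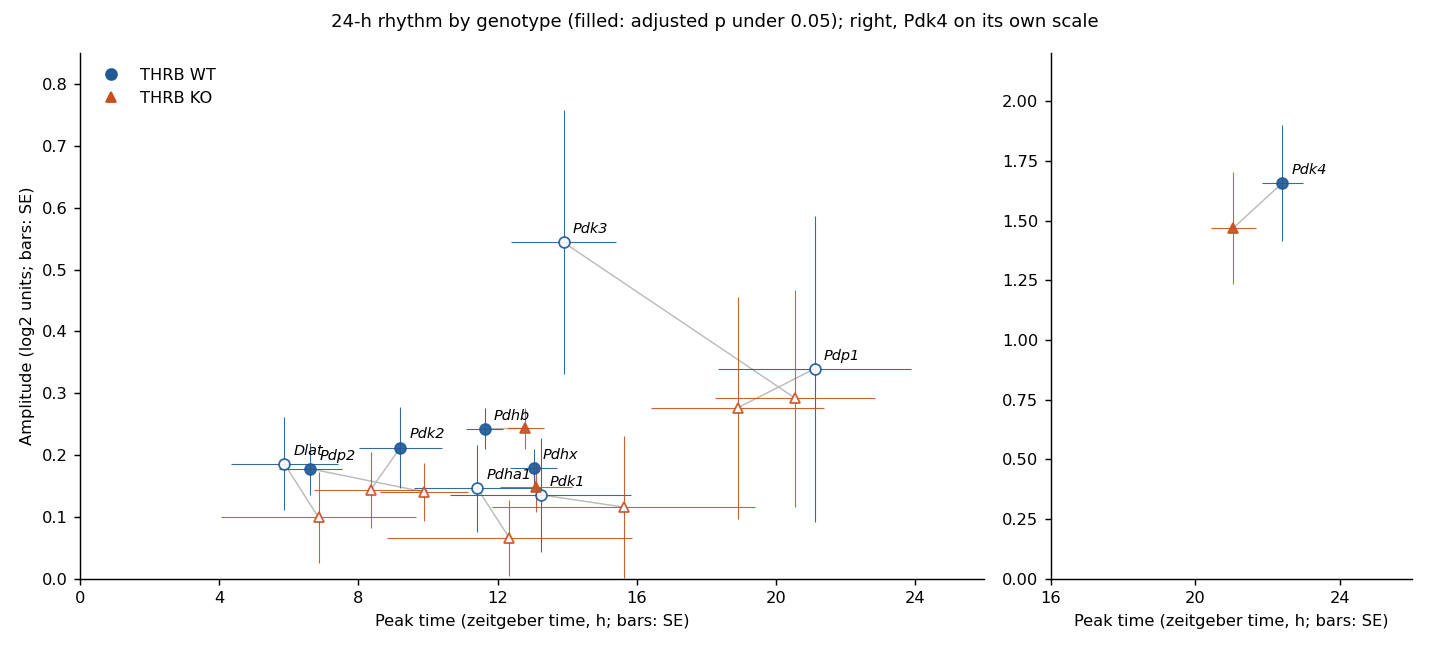
Peak time (h) against amplitude (log2 units) of the fitted 24-h curve in each genotype, with bars for standard errors, grey lines joining the genotypes and filled symbols for an adjusted p under 0.05. Pdk4 is drawn on its own axis, with amplitudes of 1.66 and 1.47, and Pdhb and Pdhx lay close together at 11.6 to 13.1 h.

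Over the 36 libraries, and among 11918 genes with a mean of at least 50 counts, the levels most like that of Pdk4 were those of Lgalsl (Pearson r of log2 CPM 0.92), Nectin1 (0.90) and Cgn (0.90). After the mean of each genotype and time was removed they were those of Rnf103 (r = 0.86) and Gm10319 (0.80), among others. For Pdk1, a kinase that also varied between mice (SD of 20.8 CPM around a mean of 93.6 CPM in THRB KO livers), they were Pklr, the liver pyruvate kinase (0.80), Cnmd (0.78) and Gm35986 (0.76) over libraries, and Slc10a1 (0.86), Cnmd (0.83) and Slc2a2 (0.83) after removal of group means. The points share sampling times, mice and library preparation, and the values are a description.

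Genes around the complex were read beside the share of all genes tested that passed between genotypes, 0.950%. In lists this short, 1 call is already above that share. The median log2 difference over all genes was -0.0011. Of 11 genes of pyruvate supply and use, 1 was lower and 0 were higher (median 0.04), the lower one being Gpt, an alanine aminotransferase that makes pyruvate from alanine, with 321 ± 41.9 CPM against 283 ± 36.2 CPM in THRB KO livers (SD, n = 18), a log2 difference of -0.18 (adjusted p = 0.0454 from edgeR). The lactate dehydrogenase Ldha differed by 0.07 (adjusted p = 0.453). Both mitochondrial pyruvate carriers, Mpc1 and Mpc2, differed by 0.08 and 0.04 without a call. Pyruvate carboxylase, Pcx, the competing route of pyruvate, differed by 0.05.

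Of the subunits and regulators outside the set, 0 of 2 tested passed, Pdpr, the regulatory subunit of the phosphatase, being at 4.17 ± 1.24 CPM in THRB WT livers and 4.77 ± 1.37 CPM in THRB KO livers with a log2 difference of 0.20. No gene passed in either direction among 12 tested genes of lipoate and thiamine supply (median -9.0e-06) or 8 tested genes of the related dehydrogenase complexes (median 0.03), where Dbt, the core of the branched-chain complex, came nearest with 0.11 (adjusted p = 0.179 from edgeR). Rhythms passed in 6 of 12 and 5 of 8 of these in THRB WT livers and in 5 of 12 and 4 of 8 in THRB KO livers. The shares over all genes tested were 33.0% and 28.9% in the same order.

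Lists of genes tied to signals that act on the kinases in other settings were read the same way. Of 12 genes of fasting and PPARalpha, 0 passed (median 0.14), Cpt1a, which admits fatty acids to mitochondria, differing by 0.21 (adjusted p = 0.109 from edgeR). Of 7 genes tied to FOXO1 and repressed by insulin, 1 was higher (median 0.11): Foxo1 itself by 0.19 (adjusted p = 0.0215), from 26.1 ± 6.21 to 29.5 ± 5.37 CPM (SD, n = 18). Of 7 insulin-induced genes 0 passed (median 0.05), with Elovl6, a fatty acid elongase, at 0.19. Of 8 genes of the hypoxia-inducible factor pathway 1 was higher (median 0.06): Egln1, an oxygen-sensing prolyl hydroxylase, by 0.14 (adjusted p = 0.0249). Rhythms passed in 7 and 5 of the 12 genes of fasting, in 6 and 2 of the 7 genes tied to FOXO1, in 6 and 7 of the 7 insulin-induced genes and in 6 and 5 of the 8 hypoxia genes, THRB WT livers first. Over all genes tested the shares were 33.0% and 28.9%, and the test of the rhythm difference called 0% of them. Of 16 clock genes 0 passed between genotypes and 16 of 16 had a 24-h rhythm in each genotype. Their peaks in THRB WT livers were spread over the day, such as Npas2 at ZT0.47, Nr1d1 at ZT7.4, Dbp at ZT9.9 and Arntl at ZT22.0. Whether any of them is tied to the rhythm of Pdk4 was not tested.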

How the data were processed

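Liver RNA of 36 mice was sequenced as poly-A selected, non-directional libraries. Per the labels and the study's methods, the authors aligned reads by HISAT2 to GRCm38 (mm10), assigned them to genes by featureCounts, and deposited whole-number counts for 54532 genes without normalization. Versions, annotation release and the handling of reads with several matches are not given in the sources used here. Where a gene has a near copy, reads may have been assigned to either.

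Tests covered the 17994 genes whose counts summed to 100 or more. Library sizes were scaled by TMM, and CPM and log2 CPM (prior count 2) were computed with edgeR 4.0.16 (limma 3.58.1, R 4.3.3). Genotype was tested with sampling time as a factor, rhythms with sine and cosine terms of 24 h within each genotype, and their difference and the interaction in all 36 libraries, by the quasi-likelihood F test of edgeR, adjusted by the method of Benjamini and Hochberg over all tested genes, with a threshold of 0.05. Peak times, amplitudes and their standard errors come from least-squares fits to log2 CPM in numpy 2.4.6. FPKM is CPM per kilobase of the gene length in the table. Fits were tested on simulated counts. DESeq2 1.42.0 and BLAST 2.17.0 served as alternative test and for copies.

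The 10 genes and all lists were chosen with earlier results of these data known. Named beside them were Dld and Gm6123, up to 4 genes of each list by smallest p between genotypes or largest amplitude, and the 3 most correlated genes of members with the largest amplitude or spread. Mpc1, Mpc2, Pcx, Alb, Ttr, Thrb and the overlapping genes were named outside this rule. Some genes that the rule selects are not reported here. Alternatives were other normalization, filters, dispersion estimates, time models, limma on log2 CPM, addition of Gm6123 to Pdhb, a replicate block and the mice of each letter left out.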

Additional observations from a re-analysis of the deposited data

How the results depend on the processing

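The call of Pdp2 between genotypes and the absence of other calls held under relative log expression size factors, both other filters, robust dispersion, genotype alone, and Gm6123 counts added to Pdhb. DESeq2 called 2 members (Pdp2 and Pdhb), and leaving out the mice of 1 letter gave 1 to 2. Over all genes the 171 calls became 306 with DESeq2, 65 with genotype alone and 40 to 81 without the mice of 1 letter. With sampling time as a factor the rhythm of Pdp2 in THRB WT livers (adjusted p = 0.136, edgeR) and of Pdhx in THRB KO livers (0.153) was lost, and that of Pdhx also without a filter (0.0528). Members called rhythmic without 1 letter numbered 4 to 5 in THRB WT livers and 1 to 2 in THRB KO livers, and all genes called 3109 to 4005 and 2343 to 3192. Without 1 letter the log2 difference of Pdhx, uncalled, ranged from -0.01 to 0.05 and that of Pdp1, uncalled, from -0.05 to 0.29, and the cause was not tested.

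The labels do not say what a letter marks, nor what the number of each library means. Those numbers were mostly close between the genotypes within a letter and time. Mice of the same letter and time deviated together with r over 0.1 in 16 of 18 pairs (median 0.218, highest 0.397), and 33 of 36 mice correlated best with their own letter, a hint from the data of something shared. In the other 2 pairs r was not over 0.1 (lowest -0.07). The main fits left the letter out, so their standard errors and calls take no account of what mice of the same letter may share. A replicate block gave 387 genes called between genotypes with 1 member, and 7 and 3 members rhythmic in THRB WT and THRB KO livers, the 2 added in THRB WT livers being Dlat (adjusted p = 0.0138, edgeR) and Pdha1 (0.0450). Pdp1 and Pdk3, at 3 to 96 and 2 to 23 counts per library, are limited by depth.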

Other observations

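With the mean of each genotype and time removed, the Pearson correlation of log2 CPM over 36 libraries was positive for each pair of the subunits Pdha1, Pdhb, Dlat, Pdhx and Dld, from 0.22 for Dlat with Pdhx to 0.84 for Pdha1 with Dld. It was 0.76 for Dlat with Dld and 0.69 for Pdha1 with Dlat, and 0.26 to 0.46 for Pdhb with Pdhx, Dld, Dlat and Pdha1. Without that removal the subunit pairs ran from -0.07 for Pdhb with Dld to 0.73 for Pdha1 with Dld. After it, Pdp2 gave -0.01 (Dlat) to 0.33 (Pdhb) with these subunits. Pdk4 gave 0.14 (Pdhx) to 0.71 (Dlat), Pdk1 0.23 (Pdhx) to 0.55 (Pdha1) and Pdk2 -0.03 (Pdhx) to 0.48 (Dld). Positive values with every subunit were thus also found for kinases. Pcx, named here after its value was seen, reached 0.89 with Pdha1. The points share libraries and preparation.

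The letter of a mouse moved with these levels. Dld was highest in the mouse of letter b in 11 of 12 groups, Pdha1 in letter b in 10 of 12, and Dlat was lowest in letter a in 11 of 12. Pdp2 was highest in letter b in 7 of 12 groups and in letter a in 4 of 12. What the letters share, and its part in the results, was not tested.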
